A study of Mus musculus with 6 samples.

Results

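Chemokines and chemokine receptors in lung endothelial cells (ECs) are described here, chosen as the genes whose symbol names a chemokine ligand (Ccl, Cxcl, Cx3cl, Xcl), a chemokine receptor (Ccr, Cxcr, Cx3cr, Xcr) or an atypical receptor (Ackr1 to Ackr4). There are 61 of them among the 24063 gene symbols of the count tables, and 60 are described, namely 24 CC ligands, 13 CXC ligands, 2 ligands of the CX3C and XC classes, 17 receptors and 4 atypical receptors. Chemokines are small secreted proteins that draw leukocytes along a concentration gradient and act through G protein-coupled receptors on the responding cells. They are classed by the spacing of their first cysteines into CC, CXC, XC and CX3C ligands, and the atypical receptors (Ackr genes) bind chemokines without G protein signaling and remove or present them. In the lung, ECs, macrophages, fibroblasts and epithelial cells all make chemokines, and ECs also carry receptors such as Cxcr4 and the atypical receptors.

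ECs were isolated with anti-CD31 conjugated magnetic beads from lungs of male C57BL6 mice, given as 8 weeks old in the sample labels and as older in the methods. The 2 groups were sham-operated mice and mice 7 days after left unilateral pneumonectomy (PNX), the surgical excision of 1 lung, which is followed by growth of the other. Each group had 3 libraries, and each library pooled 2 mice. Strain and sex were the same in both groups, and the sham mice had a thoracotomy without lung removal. The question put to these libraries was which genes differ in lung ECs between PNX and sham.

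Total counts ranged from 29526989 to 81282871 per library, and the 60 genes took 0.195% to 0.233% of them. Replicates 1 and 2 of both groups were re-used from an earlier record (earlier deposit) and differed from each other by little more than counting error, so they were summed to 1 sample, which left n = 2 samples per group. Replicate 3 of each group, called the later deposit, stood apart, with a chi-square per degree of freedom of 67.9 to 86.4 against the other replicates of its group, where 1 is counting error alone. EC markers were high in every library, with a summed CPM (counts scaled to a common library size) over 10 genes of 9959 to 11872 in sham and 8814 to 9783 in PNX, and 0 of the 10 were called with the replicate block described further on (5 had an unadjusted p under 0.05 in edgeR, and DESeq2 called 0). Markers of other cells were also present. Summed CPM over 12 macrophage and monocyte genes ranged from 2414.5 to 4421 in sham and 3223 to 4314 in PNX, so the level of a chemokine here is that of the whole isolate. In such bulk samples fewer cells of a type and less RNA per cell cannot be told apart.

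The sequences upstream of 5 of these genes are shown first, because 4 of them held a sequence resembling the binding site of NF-kappaB, a factor known to induce chemokine genes, and because Cxcl1, Cxcl2 and Cxcl3 are neighbours of which Cxcl2 was not called in the test described further on. RefSeq gave a promoter for 45 of the 60 genes (GRCm38.p6), and the 250 bases before the start were searched on both strands for GGG and TTCC with any 3 bases between them (kappa B like) and for TTTC and TTTC with any 2 bases between them (interferon response like). The bases are printed 5′ to 3′ on the strand of the gene up to the annotated start, with the matches to either sequence in capitals. The windows are chr5:90890995-90891240 (plus strand) for Cxcl1, chr5:90903649-90903870 (plus) for Cxcl2, chr5:90785851-90786100 (plus) for Cxcl3, chr5:92348890-92349139 (minus) for Cxcl10 and chr11:82114935-82115184 (plus) for Ccl8.
Cxcl1: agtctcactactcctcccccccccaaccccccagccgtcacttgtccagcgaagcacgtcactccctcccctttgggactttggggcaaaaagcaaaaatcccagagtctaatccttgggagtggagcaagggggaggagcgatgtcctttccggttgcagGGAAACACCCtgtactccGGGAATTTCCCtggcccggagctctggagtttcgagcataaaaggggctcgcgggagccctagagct
Cxcl2: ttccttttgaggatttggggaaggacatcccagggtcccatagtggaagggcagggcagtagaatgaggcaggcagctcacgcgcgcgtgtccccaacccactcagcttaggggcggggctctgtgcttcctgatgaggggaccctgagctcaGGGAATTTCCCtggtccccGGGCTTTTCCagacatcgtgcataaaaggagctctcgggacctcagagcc
Cxcl3: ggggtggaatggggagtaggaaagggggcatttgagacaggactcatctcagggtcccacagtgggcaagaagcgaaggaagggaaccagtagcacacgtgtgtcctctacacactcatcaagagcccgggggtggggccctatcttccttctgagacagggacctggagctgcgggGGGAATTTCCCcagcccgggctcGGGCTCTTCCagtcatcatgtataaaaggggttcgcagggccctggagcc
Cxcl10: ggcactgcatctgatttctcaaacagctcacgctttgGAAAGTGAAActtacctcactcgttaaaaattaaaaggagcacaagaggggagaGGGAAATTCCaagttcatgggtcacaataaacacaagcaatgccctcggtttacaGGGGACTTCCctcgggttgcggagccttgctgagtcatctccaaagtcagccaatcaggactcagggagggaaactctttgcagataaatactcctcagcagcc
Ccl8: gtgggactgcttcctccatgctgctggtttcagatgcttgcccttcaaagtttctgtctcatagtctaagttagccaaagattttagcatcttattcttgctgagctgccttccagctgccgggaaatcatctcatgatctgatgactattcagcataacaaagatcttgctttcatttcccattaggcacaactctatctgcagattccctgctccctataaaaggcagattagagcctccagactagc

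Cxcl1, Cxcl2 and Cxcl3 shared the letters GGGAATTTCC, whose first base lay 71, 97 and 73 bases before the RefSeq start. The same letters read on the other strand also match, which is why 11 capitals stand in a row. Cxcl1 held another match 89 bases before its start, Cxcl2 one at 78 and Cxcl3 one at 50. Cxcl10 held GGGAAATTCC at 159 and GGGGACTTCC at 104, and the interferon response like letters GAAAGTGAAA at 213. Ccl8, the ligand with the highest fold change, held neither sequence in this window. Over all 45 genes with a promoter, 9 held the kappa B like sequence, against 4.65% of the 32851 promoters in the table. The interferon response like sequence was held by 3, against 2.98%. A gene was counted if any of its promoters matched, whereas the percentages are counted per promoter. The kappa B like sequence stood in 4 of the 8 genes called higher after PNX that had a promoter and in 4 of the 31 tested but not called. A match is a description of letters and not evidence of binding.

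The 4 samples were tested by the quasi-likelihood method of edgeR. Called genes are those with an adjusted p under 0.01 whose log2 fold change exceeds 1 in size, the thresholds of the study. Of the 60 genes, 52 passed the filter on low counts and were tested. Without a block 0 of the 52 were called in either direction, the lowest adjusted p being 0.0738 (Ccl2 and Ccl7), and 18 had an unadjusted p under 0.05, where 12.5% of all genes did. Of all 16598 genes tested 0 were called in that fit, so the background was 0%. Other tools on these 4 samples called 0 (limma-voom) and 8 (DESeq2) of the chemokine genes, the 8 all higher after PNX, against 0% and 3.43% of all genes (2.91% higher in DESeq2). With a replicate block by deposit, which compares PNX with sham within each deposit, edgeR called 15, of which 12 were higher and 3 lower after PNX. That is 28.8% of those tested, against 5.12% of all genes tested (3.89% higher and 1.23% lower). This fit has 1 residual degree of freedom. With replicate 1 of both groups left out it called 7, and with replicate 2 of both groups left out 17. In edgeR with each of the 6 libraries as a replicate and no block, 6 were called (Ccl2, Ccl7, Ccl8, Ccl12, Ccl24 and Cxcl5), all higher, against 2.51% of all genes (2.28% higher). DESeq2 called 13 with the block and 15 with 6 libraries, against 4.86% and 5.41%. The test planned for these calls was the edgeR fit of 4 samples without a block, and the other fits were alternatives to it. In what follows, called refers to the fit with the replicate block unless another fit is named. For lists of other genes, counts with an unadjusted p under 0.05 in edgeR are also from that fit. Its share over all genes is not given here, and 12.5% is that of the fit without the block. Such counts therefore have no background beside them. Of the 52 chemokine genes 30 had such a p with the block.

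By class, of 31 ligands tested 11 were called, all higher after PNX. Of 17 receptors 3 were called, all lower, and of 4 atypical receptors 1 was called higher. Across the 52 genes the median log2 fold change was -0.01 with the block and -0.07 without it, against -0.01 over all genes in both. Without the block it was 0.40 when sham replicate 3 was left out. That fit sets sham of the earlier deposit alone against PNX of both deposits, so it mixes deposit with group. In the earlier deposit alone the median was 0.11. The median size of the log2 fold change was 0.56 with the block against 0.22 over all genes. All 3 PNX libraries lay above all 3 sham libraries in 16 of the 52 genes and below in 9, together 48.1%, against 36.7% of all genes tested (18.8% above and 17.9% below). An exact two-sided permutation test of 3 against 3 libraries cannot give a p below 0.1 for a single gene, and with replicates 1 and 2 as 1 sample, 2 against 2, none below 0.333. Whether replicates 1 and 2 are separate pools of mice or 1 library sequenced more than once could not be told from their counts, and the counts over 3 libraries a group treat them as separate.

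**Figure D1:**
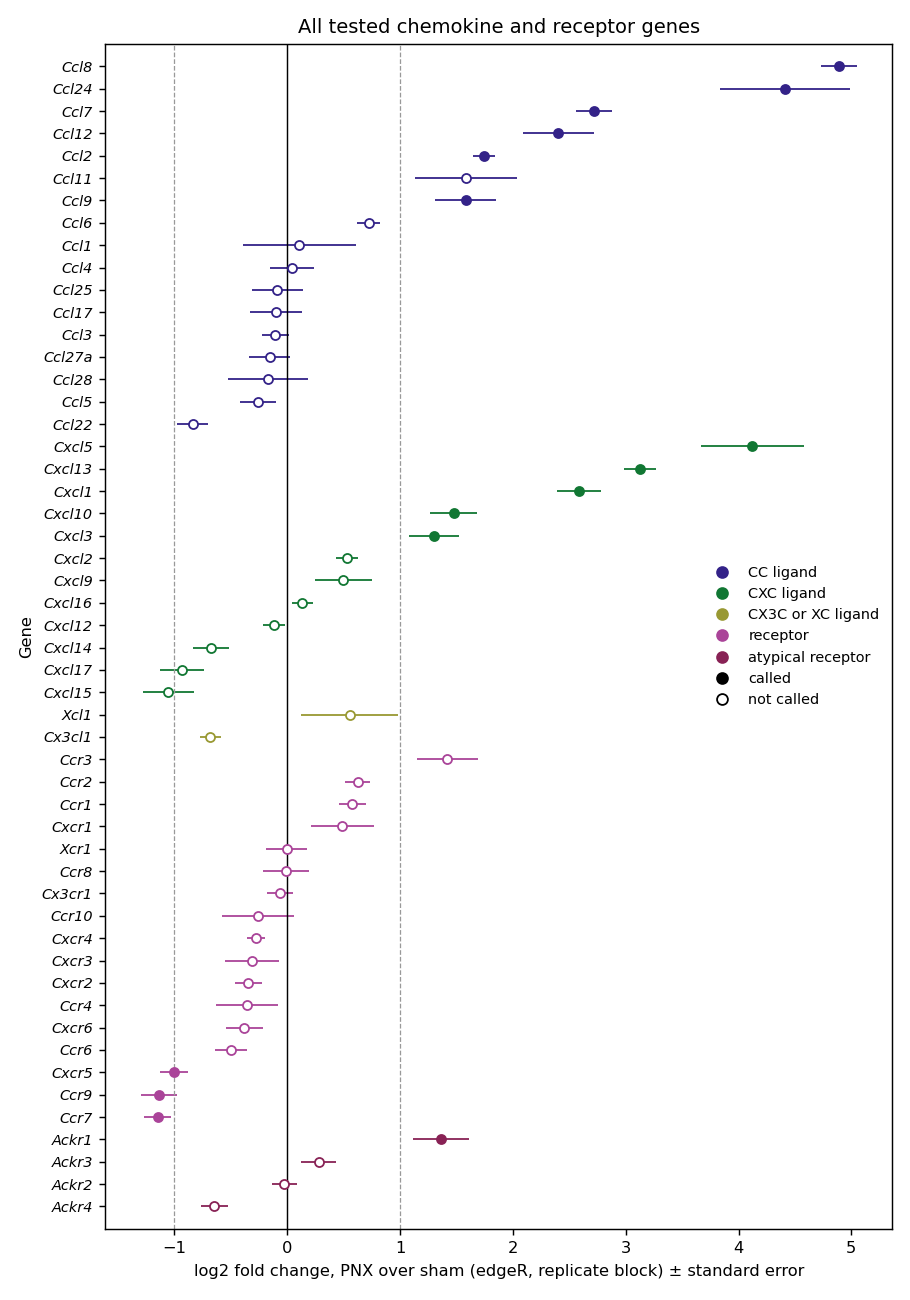
The log2 fold change of PNX over sham with the replicate block (x axis) of each of the 52 tested genes (y axis), in order within each class, with bars for the standard error, filled points for called genes and dashed lines at -1 and 1. The 11 called ligands lie to the right of 1, and the 3 called receptors on the left, Ccr7, Ccr9 and Cxcr5, lie near -1.

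Among the CC ligands 6 of 17 tested were called, all higher after PNX, and they include ligands of Ccr2 (Ccl2, Ccl7, Ccl12), which calls monocytes out of the blood, and ligands of Ccr8 (Ccl8), Ccr3 (Ccl24) and Ccr1 (Ccl9). Ccl8, a chemokine that macrophages are known to make, was at 0.223, 0.391 and 0.891 CPM in replicates 1, 2 and 3 of sham and at 9.54, 8.89 and 25.7 CPM in those of PNX, the order in which values are given for all genes. Every PNX library was far above every sham library. The log2 fold change was 4.89 (SE 0.16, edgeR adjusted p = 1.22e-05) with the block and 5.05 (SE 0.81, adjusted p = 0.111) without it. The PNX over sham ratio of Ccl8 was 30.0 in the earlier deposit and 29.3 in the later one, nearly the same.

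Ccl24 (eotaxin-2), which attracts eosinophils through Ccr3, was at 0.707, 0.377 and 1.63 CPM in the sham libraries and at 26.2, 26.8 and 10.5 CPM after PNX. The groups did not overlap, but the size differed between deposits, with a ratio of 47.1 (95% exact interval 38.0 to 59.2) in the earlier deposit and 6.53 (4.89 to 8.86) in the later one. Such intervals cover counting error only. The log2 fold change of Ccl24 was 4.41 (SE 0.58, edgeR adjusted p = 0.00233) with the block and 4.21 (SE 0.74, adjusted p = 0.127) without it. Ccl11 (eotaxin-1), also a ligand of Ccr3, was not called (log2 fold change 1.58, edgeR adjusted p = 0.0465), and its ratio was 4.86 in the earlier deposit and 1.44 (0.767 to 2.73) in the later one.

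The 3 Ccr2 ligands were each higher in all PNX libraries than in all sham libraries. Ccl2 (MCP-1) was at 8.75, 8.11 and 9.98 CPM in the sham libraries and at 28.2, 27.6 and 34.0 CPM after PNX. With PNX over sham, the log2 fold change was 1.74 (SE 0.10, edgeR adjusted p = 4.35e-05) with the block and 1.75 (SE 0.19, adjusted p = 0.0738) without it. Ccl7 (MCP-3) was at 2.38, 1.98 and 3.62 CPM in the sham libraries and at 17.4, 17.1 and 19.0 CPM after PNX, so that the libraries within a group lay close together. This gave a log2 fold change of 2.72 (SE 0.16, edgeR adjusted p = 5.46e-05) with the block and 2.67 (SE 0.29, adjusted p = 0.0738) without it. Ccl12 (MCP-5) was at 0.261, 0.363 and 0.505 CPM in the sham libraries and at 2.30, 1.83 and 1.81 CPM after PNX, with a log2 fold change of 2.40 (SE 0.32, edgeR adjusted p = 0.00239) with the block and 2.32 (SE 0.39, adjusted p = 0.117) without it. The ratios of Ccl2 were 3.25 and 3.48 in the 2 deposits, those of Ccl7 7.73 and 5.36, and those of Ccl12 6.62 and 3.66.

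Ccl6 and Ccl9, neighbouring Ccr1 ligands that macrophages express, differed in their call. Ccl9 was at 19.0, 17.6 and 43.9 CPM in the sham libraries and at 89.3, 86.8 and 80.0 CPM after PNX, and sham replicate 3 lay between the other sham libraries and PNX. Set against sham, the log2 fold change was 1.58 (SE 0.27, edgeR adjusted p = 0.00752) with the block and 1.45 (SE 0.42, adjusted p = 0.274) without it, with ratios of 4.72 and 1.86 in the deposits. Ccl6, the ligand with the highest level per length in the table (mean 619 TPM, the length-scaled transcript level), was at 236, 235 and 321 CPM in the sham libraries and at 430.1, 429 and 478 CPM after PNX. All 3 PNX libraries were above sham, with a log2 fold change of 0.72 (SE 0.10, edgeR adjusted p = 0.00345), under the size needed for a call. The call of Ccl9 was made in 3 of 8 fits with the block. The contrast between both genes thus rests on a call that most of these fits did not make. The adjusted p of Ccl9 was 0.0131 where edgeR with the block took the transcript with the highest total of every gene. As Ccl9 has 1 transcript, its own counts were the same in that fit.

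The other 10 tested CC ligands were not called. Ccl3 (MIP-1 alpha), among the 5 ligands of highest level, was at 37.0, 36.1 and 62.2 CPM in the sham libraries and at 40.6, 40.2 and 48.1 CPM after PNX, and its groups overlapped. Its log2 fold change was -0.11 (SE 0.12, edgeR adjusted p = 0.569), with a ratio of 1.08 in the earlier deposit and 0.789 in the later one. Ccl22, a Ccr4 ligand of dendritic cells, chosen after its values were seen, had a log2 fold change of -0.84 (SE 0.14, edgeR adjusted p = 0.00671), below the size needed. The remaining 7 CC ligands, Ccl1, Ccl4, Ccl5, Ccl17, Ccl25, Ccl27a and Ccl28, had log2 fold changes from -0.26 to 0.11.

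Among the CXC ligands 5 of 12 tested were called, all higher after PNX. They were the neutrophil attractants Cxcl1, Cxcl3 and Cxcl5, the B cell attractant Cxcl13 and the interferon-inducible Cxcr3 ligand Cxcl10. Cxcl5 was nearly absent in sham, at 0.0372, 0.0698 and 0.208 CPM (3, 5 and 7 counts), and read 1.55, 1.51 and 1.78 CPM in PNX. The log2 fold change was 4.12 (SE 0.45, edgeR adjusted p = 0.00114) with the block and 4.01 (SE 0.70, adjusted p = 0.126) without it. The ratio was 28.6 (95% exact interval 14.2 to 67.1) in the earlier deposit and 8.71 (3.95 to 22.7) in the later one. Cxcl1 (KC) was at 4.18, 3.99 and 9.86 CPM in the sham libraries and at 32.8, 33.3 and 42.6 CPM after PNX. The groups lay far apart, with sham replicate 3 the highest of its group, and the log2 fold change was 2.59 (SE 0.19, edgeR adjusted p = 0.00016) with the block and 2.47 (SE 0.46, adjusted p = 0.139) without it. Cxcl3 was at 0.906, 0.893 and 1.43 CPM in the sham libraries and at 2.62, 2.30 and 3.05 CPM after PNX, with a log2 fold change of 1.30 (SE 0.22, edgeR adjusted p = 0.00703) with the block and 1.27 (SE 0.35, adjusted p = 0.257) without it.

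Cxcl2 (MIP-2), which acts on the same receptor Cxcr2 and shares the promoter letters shown above, was not called. It was at 39.1, 39.0 and 100.2 CPM in the sham libraries and at 63.8, 62.3 and 129 CPM after PNX, and sham replicate 3 was above PNX replicates 1 and 2. Within each deposit PNX was higher, with ratios of 1.59 and 1.31, and the log2 fold change was 0.53 (SE 0.09, edgeR adjusted p = 0.00823) with the block, under the size needed for a call.

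Cxcl13, which guides B cells through Cxcr5 and builds lymphoid follicles, was at 1.46, 1.40 and 2.76 CPM in the sham libraries and at 11.8, 11.2 and 26.9 CPM after PNX. With PNX over sham, the log2 fold change was 3.13 (SE 0.14, edgeR adjusted p = 2.09e-05) with the block and 3.24 (SE 0.57, adjusted p = 0.127) without it, and its ratios were 7.90 and 9.94. Cxcl10 (IP-10) was at 2.64, 2.67 and 8.73 CPM in the sham libraries and at 10.7, 9.41 and 17.3 CPM after PNX. The lowest PNX library of Cxcl10 was only slightly above the highest sham library, and the log2 fold change was 1.48 (SE 0.21, edgeR adjusted p = 0.00331) with the block and 1.30 (SE 0.63, adjusted p = 0.507) without it. Cxcl9, which like Cxcl10 is induced by interferon gamma and binds Cxcr3, was not called (log2 fold change 0.50, edgeR adjusted p = 0.203).

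Cxcl15 (lungkine), a product of lung epithelium and the second ligand by level (mean 242 TPM), was at 254, 251 and 278 CPM in the sham libraries and at 182, 180.0 and 88.9 CPM after PNX. All 3 PNX libraries were below sham, with a log2 fold change of -1.05 (SE 0.23, edgeR adjusted p = 0.0178) with the block, past the size but not the adjusted p. The ratio of Cxcl15 was 0.704 in the earlier deposit and 0.326 in the later one. The summed CPM of 6 alveolar type 2 genes was also lower in PNX, at 5237 to 5740 in sham and 1991 to 3396 in PNX, with ratios of 0.633 and 0.354, and that of 5 club cell genes with ratios of 0.470 and 0.260. Their part in the result was not tested. Cxcl17 and Cxcl14, also made by epithelium, were not called, with log2 fold changes of -0.93 (edgeR adjusted p = 0.0167) and -0.67 (adjusted p = 0.0239).

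The genes of the Cxcl12 axis, through which Cxcr4 and the scavenger Ackr3 respond to Cxcl12 and which is known for vessel growth, were high in level and were not called. Cxcl12 was at 544, 543 and 535 CPM in the sham libraries and at 484, 494 and 505 CPM after PNX. Each PNX library was below each sham library, but by little, with a log2 fold change of -0.12 (SE 0.10, edgeR adjusted p = 0.440). Cxcr4, the receptor of highest level per transcript (mean 166 TPM), was at 114, 119 and 161 CPM in the sham libraries and at 99.3, 102 and 127 CPM after PNX, with a log2 fold change of -0.28 (SE 0.08, edgeR adjusted p = 0.0487). Ackr3 was at 171, 171 and 94.7 CPM in the sham libraries and at 165, 167 and 144 CPM after PNX. Sham replicate 3 stood apart for Ackr3, and the ratio, taken from its transcript with the highest total, was 0.954 in the earlier deposit and 1.56 in the later one, so that the deposits differed in direction. This gave a log2 fold change of 0.28 (SE 0.15, edgeR adjusted p = 0.246). Cxcl16, the ligand of Cxcr6 that is also a scavenger receptor, had a log2 fold change of 0.13 (edgeR adjusted p = 0.351).

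Of the ligands outside the CC and CXC classes neither was called. Cx3cl1 (fractalkine), a membrane-bound ligand that ECs display, chosen after its values were seen, was at 66.1, 67.8 and 79.7 CPM in the sham libraries and at 38.9, 40.5 and 52.5 CPM after PNX. All 3 PNX libraries were below sham, with a log2 fold change of -0.68 (SE 0.09, edgeR adjusted p = 0.00243), under the size needed for a call. Its receptor Cx3cr1 had a log2 fold change of -0.06 (edgeR adjusted p = 0.742). Xcl1 had one of 0.55 (edgeR adjusted p = 0.403).

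**Figure D2:**
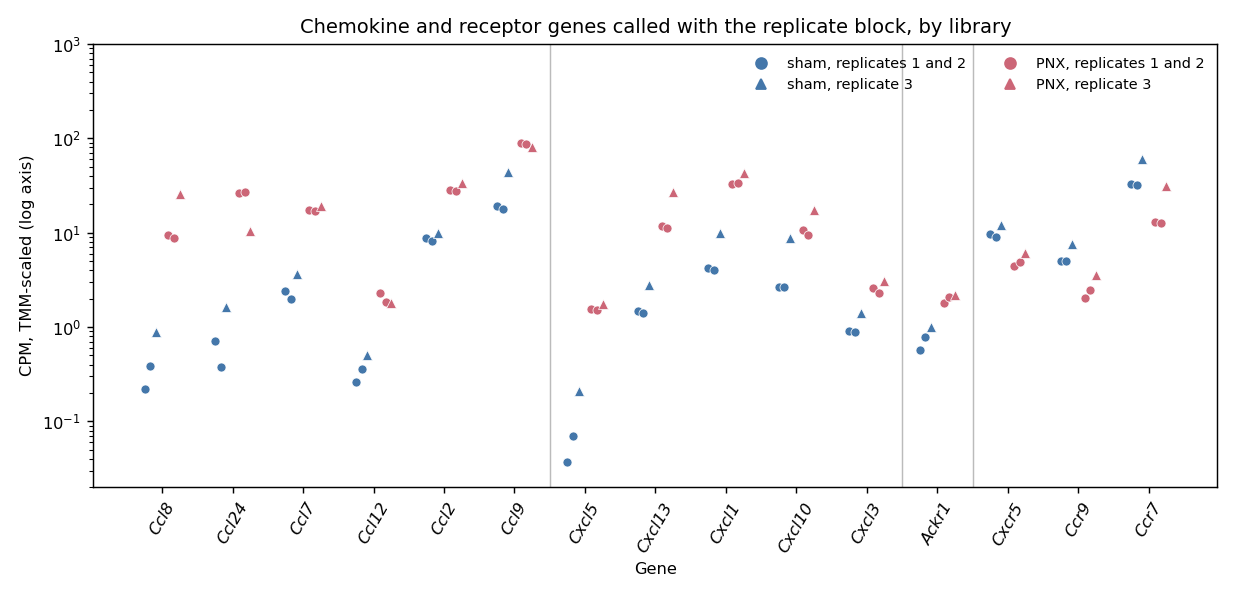
TMM-scaled CPM (log axis) of the 15 called genes (x axis, grouped as CC ligands, CXC ligands, atypical receptor and receptors) in each library, with circles for replicates 1 and 2, triangles for replicate 3, blue for sham and red for PNX. The PNX points lie above the sham points for the 12 genes from Ccl8 to Ackr1 and below them for Cxcr5, Ccr9 and Ccr7, and sham replicate 3 is the highest sham library for each of the 15.

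Among the receptors Ccr7, Ccr9 and Cxcr5 were called. Ccr7, which leads T cells and dendritic cells to lymph nodes, was at 32.7, 32.0 and 60.9 CPM in the sham libraries and at 13.0, 12.7 and 31.5 CPM after PNX. All PNX libraries were below all sham libraries, but PNX replicate 3 was close to sham replicates 1 and 2, and the log2 fold change was -1.15 (SE 0.12, edgeR adjusted p = 0.000798) with the block and -1.07 (SE 0.53, adjusted p = 0.516) without it. Cxcr5, the Cxcl13 receptor of B cells, was at 9.74, 9.02 and 12.2 CPM in the sham libraries and at 4.47, 4.91 and 6.14 CPM after PNX. Its log2 fold change lay at the threshold, -1.002 (SE 0.13, edgeR adjusted p = 0.00206) with the block and -0.9999 (SE 0.25, adjusted p = 0.218) without it. Ccr9, the receptor of Ccl25 on thymocytes and gut-homing lymphocytes, was at 4.98, 5.02 and 7.63 CPM in the sham libraries and at 2.02, 2.46 and 3.59 CPM after PNX, with a log2 fold change of -1.13 (SE 0.16, edgeR adjusted p = 0.00315) with the block and -1.13 (SE 0.36, adjusted p = 0.322) without it. The gene bodies of Ccr9 and Cxcr5, and those of Ccl2 and Cxcl10 among the ligands, overlap other genes (Bcl9l on the other strand for Cxcr5, Art3 for Cxcl10), and no source says that reads were counted by strand, so their reads could in part be those of the overlapping genes.

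The lower receptors stood beside markers of the lymphocytes that carry them. All 7 B cell markers and all 7 T cell markers tested had log2 fold changes below 0, with medians of -0.91 and -0.79, and 4 and 5 of them had an adjusted p under 0.01, but 0 of the 14 passed the size needed for a call in edgeR, and DESeq2 with the block also called 0. An unadjusted p under 0.05 was reached by all 7 B cell and 6 T cell markers. Their summed CPM ranged from 191 to 261 in sham and 126 to 182 in PNX for B cells, and from 59.1 to 117 in sham and 32.5 to 77.6 in PNX for T cells. The ratios were 0.645 and 0.711 in the 2 deposits for B cells and 0.552 and 0.676 for T cells, against 0.488 and 0.512 for Cxcr5 and 0.390 and 0.527 for Ccr7. For the list of dendritic cells, which Ccr7 also leads to lymph nodes, the ratios were nearer to 1, at 0.883 and 0.893. The part of these cells in the result was not tested.

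Of the other 14 receptors 0 were called, and their log2 fold changes ranged from -0.49 (Ccr6) to 1.42 (Ccr3). Ccr3, the eotaxin receptor, missed the threshold by little (edgeR adjusted p = 0.0103), and was at 0.744, 0.754 and 1.87 CPM in the sham libraries and at 2.71, 2.67 and 3.49 CPM after PNX. Ccr2, on classical monocytes, was at 29.4, 27.2 and 66.4 CPM in the sham libraries and at 51.7, 51.1 and 86.7 CPM after PNX, and its groups overlapped through sham replicate 3. Its log2 fold change was 0.62 (SE 0.11, edgeR adjusted p = 0.00872), under the size needed. All 17 receptors read higher in replicate 3 than in the earlier sample in sham, with a median log2 difference of 0.87, and all 17 did in PNX, against 49.1% and 51.7% of all genes tested. Summed CPM of 7 neutrophil markers was also highest in replicate 3 of each group, at 699 in sham and 597 in PNX. The same held for the macrophage and monocyte, T cell, B cell, dendritic cell and eosinophil lists. The NK cell sum was lowest in replicate 3 of each group. So was the mast cell sum, which is mostly Kit, itself lowest there. Other mast cell markers went the other way. Hdc, Ms4a2, Fcer1a, Cpa3, Tpsb2 and Mcpt4 were each highest in replicate 3 of both groups, and Cma1 only in that of PNX. The part of these cells in the receptor levels was not tested.

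The atypical receptors split by call. Ackr1, the Duffy receptor of venular ECs and red cells that binds many inflammatory chemokines, was called higher. It was at 0.571, 0.782 and 1.01 CPM in the sham libraries and at 1.80, 2.10 and 2.21 CPM after PNX, with a log2 fold change of 1.37 (SE 0.25, edgeR adjusted p = 0.00914) with the block and 1.33 (SE 0.35, adjusted p = 0.236) without it. Ackr1 was called in 3 of 8 fits with the block. Its adjusted p was 0.0113 where edgeR with the block took the transcript with the highest total of every gene. As Ackr1 has 1 transcript, its own counts were the same in that fit. The annotation places Cadm3 over Ackr1 on the same strand. Ackr2 (D6), a scavenger of inflammatory CC chemokines, was far more abundant than Ackr1 per length, with means of 57.6 and 3.05 TPM, and was at 164, 168 and 98.5 CPM in the sham libraries and at 144, 143 and 110.2 CPM after PNX. Its groups overlapped, with a log2 fold change of -0.03 (SE 0.11, edgeR adjusted p = 0.896). Ackr4, which scavenges the Ccr7 and Ccr9 ligands, had a log2 fold change of -0.65 (edgeR adjusted p = 0.0101).

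Levels between genes were compared per length as TPM of the transcript with the highest total, averaged over the 6 libraries. Among ligands the order began with Ccl6 (mean 619 TPM), Cxcl15 (242), Cxcl2 (167), Ccl3 (140) and Cxcl12 (135). The ranges over libraries overlapped between each of these neighbours except Ccl6 and Cxcl15, whose ranges were 414 to 844 and 106 to 325 TPM. Of the 11 called ligands 0 were among these 5. Among receptors the order began with Cxcr4 (mean 166 TPM), Ackr3 (82.6), Ackr2 (57.6), Ccr7 (38.8) and Ccr2 (36.4). Cxcr4, at 135 to 221 TPM, lay above Ackr3, at 51.1 to 93.7 TPM, in every library, whereas Ackr3, Ackr2, Ccr7 and Ccr2 had overlapping ranges. Where the transcripts of a symbol were summed, Cxcl12 reached a mean of 321 TPM, above Cxcl15, and Ackr3 and Ackr2 reached 176 and 117 TPM, which puts Ackr3 above Cxcr4 (166), but a read shared by transcripts may then enter more than once.

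**Figure D3:**
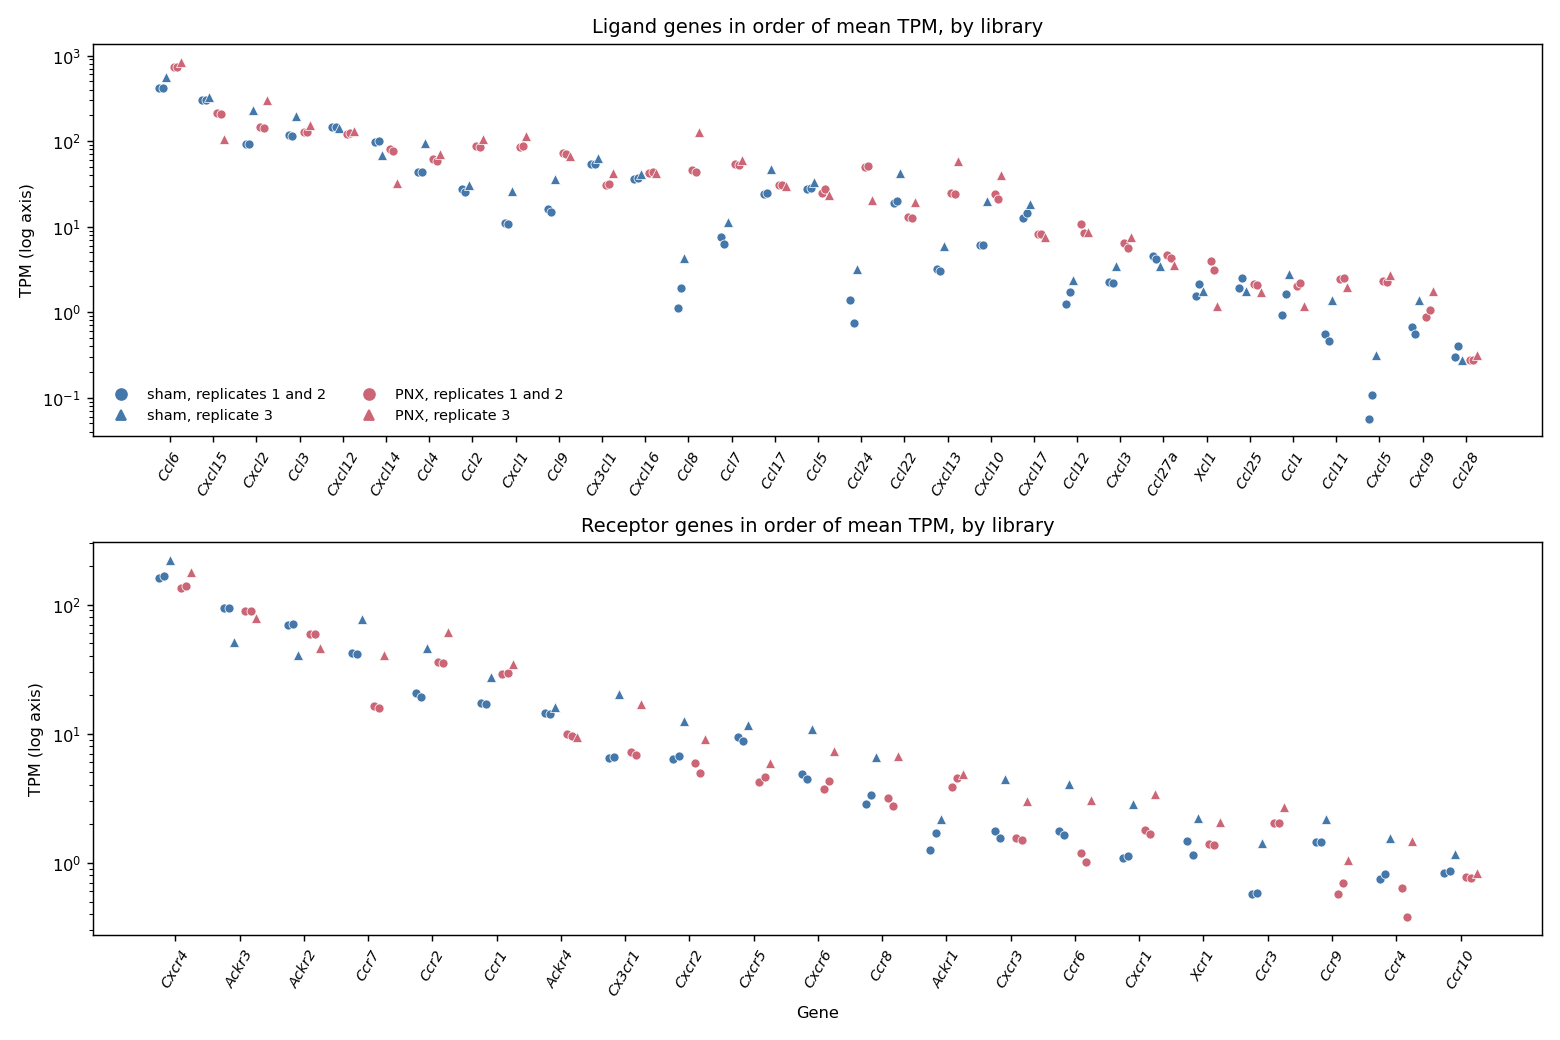
TPM (log axis) of the tested ligand genes (upper plot) and receptor genes (lower plot) in order of mean TPM (x axis), with circles for replicates 1 and 2, triangles for replicate 3, blue for sham and red for PNX. Ccl6 leads the ligands and Cxcr4 the receptors, and Ccl8, Ccl24 and Cxcl13, in the middle of the ligand order, show wide gaps between sham and PNX.

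Many of these genes lie in clusters in the genome (GRCm38, positions from GENCODE vM21). On chromosome 11, chr11:82035571-82305690 holds Ccl2, Ccl7, Ccl11, Ccl12, Ccl8 and Ccl1, and 4 of these 6 were called higher. Their log2 fold changes ranged from 0.11 for Ccl1, at the far end, to 4.89 for Ccl8. The other cluster on that chromosome, chr11:83525778-83664683, holds Ccl5, Ccl9, Ccl6, Ccl3 and Ccl4, of which Ccl9 alone was called. On chromosome 5, chr5:90759360-90905938 holds Cxcl5, Cxcl3, Cxcl15, Cxcl1 and Cxcl2, and 3 of these 5 were called higher while Cxcl15 lay between Cxcl3 and Cxcl1 with a log2 fold change of -1.05. The receptor cluster on chromosome 9, chr9:123678439-124113557, holds Ccr9, Cxcr6, Xcr1, Ccr1, Ccr3 and Ccr2, of which Ccr9 alone was called, lower after PNX. The Ccl22, Cx3cl1 and Ccl17 cluster on chromosome 8 had 0 of 3 called.

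**Figure D4:**
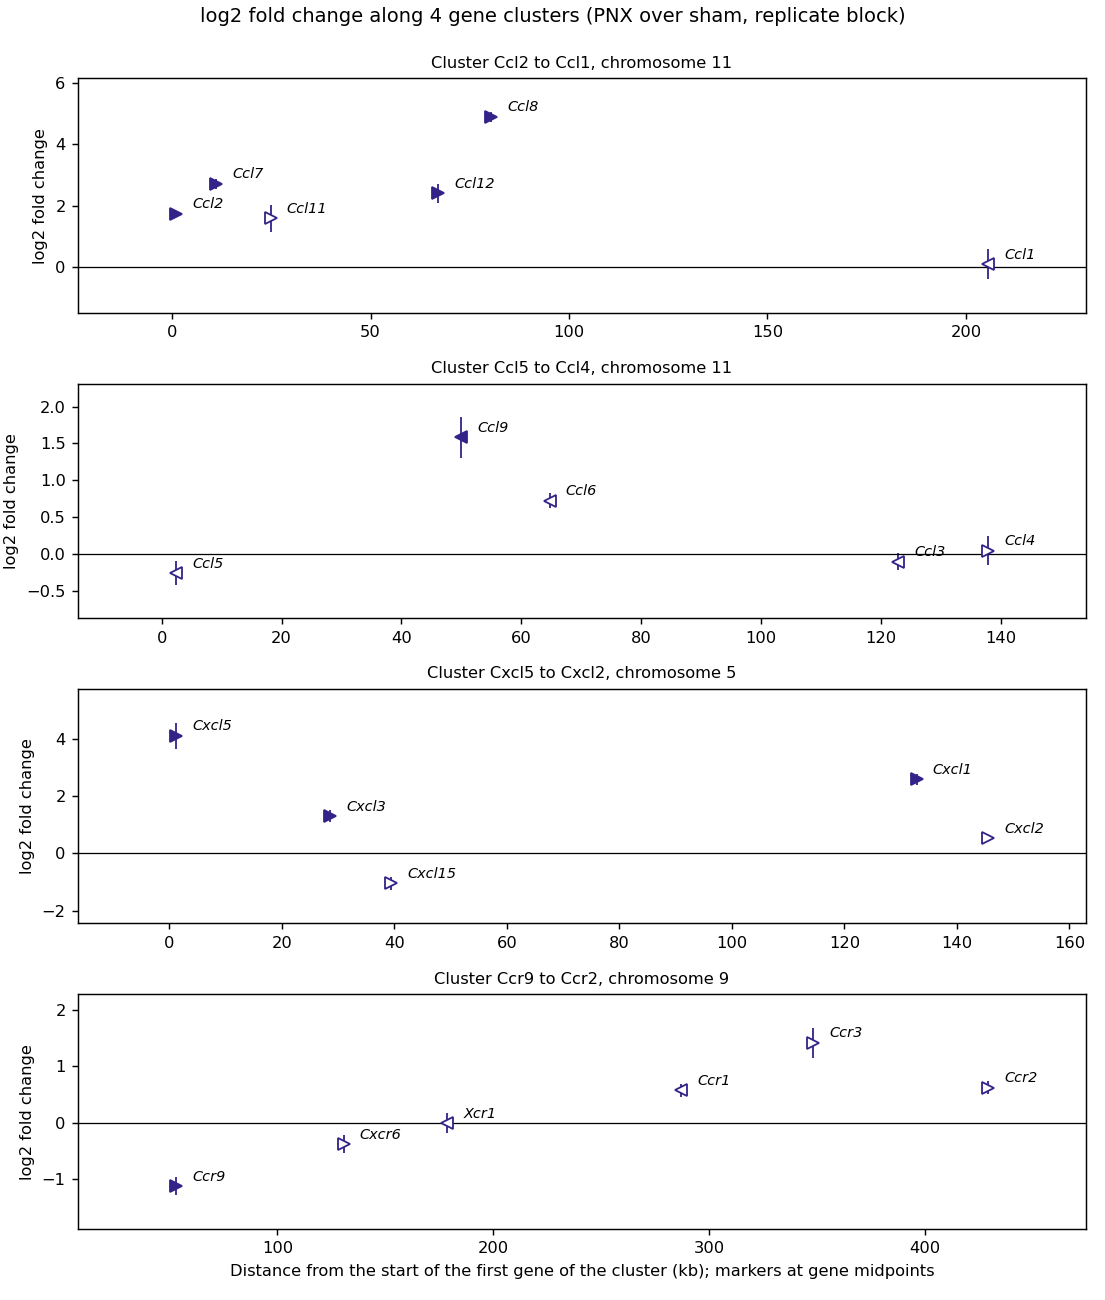
The log2 fold change of PNX over sham with the replicate block and its standard error (y axis) along 4 gene clusters, by distance in kb from the start of the first gene (x axis), with triangles pointing in the direction of transcription and filled for called genes. In the upper plot Ccl2, Ccl7, Ccl12 and Ccl8 are filled and lie above 1, and in the lowest plot the values lie between -1.13 for Ccr9 and 1.42 for Ccr3.

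A list of receptors with their main ligands was also compared, with calls by edgeR with the block. Ackr1, which was called higher and binds many inflammatory chemokines, was not in that list. Of 17 receptors with their main ligands listed (16 signaling receptors and Ackr3), 7 had at least 1 ligand called higher (Ccr1, Ccr2, Ccr3, Ccr8, Cxcr2, Cxcr3 and Cxcr5). Of these 7 receptors 0 were called higher, Cxcr5 was called lower and 6 were not called. Over all genes tested 3.89% were called higher and 1.23% lower, so a count of 0 higher among 7 genes is near that share. Of the 6, Ccr1, Ccr2 and Ccr3 had log2 fold changes of 0.58, 0.62 and 1.42, and Ccr8, Cxcr2 and Cxcr3 of -0.01, -0.34 and -0.31. Ccr3, the partner of Ccl24, missed the call by its adjusted p as given above, and DESeq2 with 6 libraries called it higher (log2 fold change 1.42, adjusted p = 0.00457). All 3 ligands listed for Ccr2 and 3 of the 4 for Cxcr2 were called higher, and Cxcr2 itself was at 7.59, 8.11 and 15.4 CPM in the sham libraries and at 7.31, 6.11 and 11.0 CPM after PNX (log2 fold change -0.34, edgeR adjusted p = 0.0859). For Cxcl13 and Cxcr5 the values went in opposite directions, 3.13 and -1.002. The Ccr7 ligands Ccl19 and Ccl21a were too low to be tested.

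The 8 genes that were not tested are Ccl19, Ccl20, Ccl21a, Ccl21b, Ccl21c, Ccl26, Ccl27b and Cxcl11. Ccl19 had 0 counts in all 6 libraries, which allows at most 0.0372 to 0.101 CPM per library. Ccl20, the Ccr6 ligand, had 8 counts in sham replicate 3 and 2 in PNX replicate 1, and 0 in the rest. Ccl21b and Ccl21c are near-identical copies with the same count in every library, 1 to 5, so their reads cannot be told apart here.

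Of 10 chemokine-related genes outside the symbol rule 1 was called, Pf4 (platelet factor 4, a CXC ligand of platelets and some macrophages), with a log2 fold change of 1.10 (edgeR adjusted p = 0.00248), whereas its platelet partner Ppbp had one of -0.08 (adjusted p = 0.787). Of 24 genes that carry the signal from chemokine receptors (G proteins, arrestins, receptor kinases, Dock2, Rac2) 0 were called, with a median log2 fold change of -0.04, 6 had an unadjusted p under 0.05 in edgeR, and DESeq2 with the block also called 0. Of 21 inducers and regulators of chemokine transcription 0 were called by edgeR with the block or with 6 libraries, or by DESeq2 with the block. With the block 6 had an unadjusted p under 0.05 in edgeR, a count without a share over all genes beside it. Among these inducers Tnf and Il1b had log2 fold changes of -0.01 and 0.08, and Il1a one of 0.51 (edgeR adjusted p = 0.00897).

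Cell types known to make the called ligands were followed by marker lists. Of 12 macrophage and monocyte markers 4 were called higher (C1qa, C1qb, C1qc and Marco, log2 fold changes 2.36 to 2.63), but the summed CPM of the list, led by Lyz2, had ratios of 1.31 and 0.995 in the deposits, and Ly6c2 and Lyz2 had log2 fold changes of -0.03 and -0.01. Of 8 fibroblast markers 5 were called higher, with summed CPM of 1135 to 1334 in sham and 3536 to 4986 in PNX. Of 6 mesothelial markers 4 were called higher, with summed CPM of 158 to 383 in sham and 328 to 856 in PNX. Of 7 neutrophil markers 0 were called (1 with an unadjusted p under 0.05 in edgeR, 0 called by DESeq2), with 241 to 699 summed CPM in sham and 270 to 597 in PNX, and of 5 eosinophil markers 0 were called (4 with an unadjusted p under 0.05, 1 called by DESeq2). The eosinophil markers went in different directions. Ear1, which makes up most of their summed CPM (32.6 to 60.8 in sham and 19.0 to 43.1 in PNX), had a log2 fold change of -0.99, whereas Epx, Prg2 and Ear6 had 1.20, 1.20 and 1.36, and the median of the 5 was 1.20. Of 8 mast cell markers 3 were called higher (Mcpt4, Tpsb2 and Cma1). Cpa3 and Fcer1a had log2 fold changes of 0.83 and 0.29, and Kit, Hdc and Ms4a2 of -0.26, -0.25 and -0.70. The summed CPM of the list, of which Kit made up most, was 540.3 to 675 in sham and 485 to 549 in PNX. Of 8 dendritic cell markers 1 was called lower (Siglech). Of 6 alveolar type 2 and 5 club cell markers 3 and 5 were called lower, and of the smooth muscle, lymphatic endothelial, NK cell and platelet markers, 6 each, 0 were called by edgeR or DESeq2, with an unadjusted p under 0.05 for 3 lymphatic endothelial markers and 0 of the others. Of all these markers 0 were at 0 in every library. The part of these cells in the higher ligands was not tested.

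**Figure D5:**
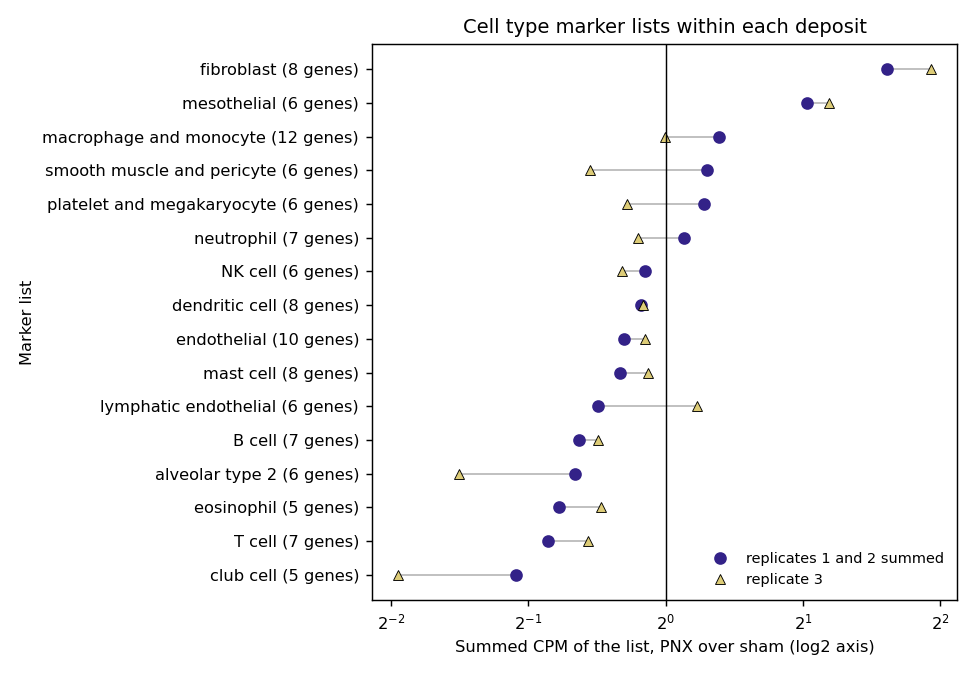
The ratio of the summed CPM of each marker list, PNX over sham, on a log2 axis (x axis) for 16 cell types (y axis), with circles for replicates 1 and 2 summed and triangles for replicate 3. Fibroblast and mesothelial lists lie above 2 in both deposits, and B cell, T cell, alveolar type 2 and club cell lists lie below 1 in both.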

How the data were processed

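Paired-end reads of stranded mRNA libraries from anti-CD31 bead-isolated lung ECs (3 sham and 3 PNX libraries) were aligned to mm10, and the authors deposited for each of 33068 transcripts a raw read count with FPKM and TPM. STAR is named in the submitters' processing notes, and reads were counted on the Basepair platform, per the methods of the study, but neither the tool nor the annotation behind the counts is given in the sources used here. FPKM values that the authors deposited (per kilobase, scaled by the library) were not used, and the deposited TPM served only to compare levels between genes. Groups were taken from the sample labels.

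Counts were summed per symbol, since 10 of the 60 genes have several transcripts, and a read shared by transcripts may then be counted more than once. Replicates 1 and 2 (chi-square per degree of freedom 1.75 in sham and 1.57 in PNX) were summed to 1 sample per group. Genes were tested with edgeR 4.0.16 (R 4.3.3; TMM, filterByExpr with the groups, glmQLFit and glmQLFTest), with Benjamini-Hochberg adjustment over all genes tested. The replicate numbers pair the groups because in both groups the labels call replicates 1 and 2 re-used. Deposits differed alike in sham and PNX across 16598 genes, which are not independent (Pearson's r = 0.720, Spearman's rho = 0.710), and the replicate block lowered the biological coefficient of variation from 0.236 to 0.0973. The standard error was taken from the log2 fold change and the F statistic (their size over root F). CPM are TMM-scaled. Ratios within a deposit use the transcript with the highest total, with 95% exact intervals (Clopper-Pearson on the PNX share of counts). The libraries have no molecular identifiers, so intervals cover counting error only.

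The planned test was edgeR on 4 samples without a block. Alternatives were the replicate block, 6 libraries as separate replicates, DESeq2 1.42.0, limma-voom 3.58.1, other scalings, filters, thresholds and left-out libraries. In simulated counts for PNX against sham over 16598 genes, 200 genes were set apart by 2 on the log2 scale. Of the 200, edgeR called 0 without the block, 172 with it and 140 with 6 libraries. DESeq2 on 4 samples without the block called 163. A count of 0 in edgeR without the block can therefore arise where genes do differ. The simulated counts had the same deposit difference in sham and PNX, and their spread was estimated with the block. Both favour the fits with the block. The simulation does not rank the fits on the real libraries. There the size of a change could differ between deposits, as for Ccl24, with ratios of 47.1 and 6.53. P-values without the block measure the spread between the samples of a group. With the block they measure how far the difference between PNX and sham varied between deposits, with the spread shared across genes. With 6 libraries they treat replicates 1 and 2 as separate pools of mice, which could not be established.

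Of the 61 genes the symbol rule finds, 1 is not reported here and enters no count of chemokine genes, while the fits and adjusted p-values cover all genes. The members and lists were chosen with earlier results of these data known. Genes named are the members called with the block or with 6 libraries, the 5 ligands and 5 receptors of highest mean TPM, Cxcl1, Cxcl5 and the Cxcl12 axis, and others are said to be chosen after their values were seen or belong to a stated count or cluster. Of the marker genes, Adgre1, Ly6g, Siglecf and Trac were not analysed here.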

Additional observations from a re-analysis of the deposited data

How the results depend on the processing

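The number of chemokine and receptor genes called depended on the fit. It was 0 with 4 samples and no replicate block under TMM, other scalings, filters, limma-voom and every left-out library. With the replicate block it was 15, and with 6 libraries as separate replicates 6 without and 15 with the block. With 6 libraries the block was the replicate number and not the deposit. Replicates 1 and 2 were then also paired between groups by number, which the labels do not support. That fit is among the 8 with the block counted below. DESeq2 called 8 with 4 samples, 13 with the block and 15 with 6 libraries. With the replicate block and DESeq2's size factors, or library size alone, it was 10 each. At an adjusted p under 0.05 (chosen after seeing the data) it was 18 with the block, and on the transcript with the highest total alone, also chosen after seeing the data, 11. Leaving out replicate 1 or replicate 2 of both groups gave 7 and 17 with the block. Leaving out 1 of the 6 libraries without block, also chosen after seeing the data, gave 0 to 10, namely 10 when sham replicate 3 was dropped, 4 when PNX replicate 3 was dropped and 0 for any other one. The other lists held 26 called genes with the block and 12 with 6 libraries, against 0 in the fit with 4 samples and no block. Over 8 fits with the block, 7 of the 15 genes were called in all of them (Ccl2, Ccl7, Ccl8, Cxcl1, Cxcl5, Cxcl13 and Ccr7), Cxcl10 in 5, Cxcl3 and Cxcr5 in 4, and Ccl9 and Ackr1 in 3, and all 15 kept one sign under every setting run.

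The median log2 fold change of the genes, -0.07, was 0.049 with 6 libraries and the block, 0.035 with limma-voom, 0.042 with the block and without replicate 2, 0.11 in the earlier deposit alone and -0.012 in the later one, and over left-out libraries it ranged from -0.090 to 0.40 (0.40 without sham replicate 3). Genes near 0 changed direction. Over left-out libraries Ackr3 ranged from -0.14 to 0.31, Ccl3 from -0.29 to 0.27, Ackr2 from -0.39 to 0.11 and Cxcl2 from -0.14 to 1.29, and with 6 libraries and without sham replicate 3 Ackr3 was -0.10 and Ccl3 0.23. Ackr2 was 0.013 with 6 libraries when sham replicate 2 was dropped. In the earlier deposit alone Ackr3 was -0.067 and Ccl3 0.12, and in the later one Ackr2 was 0.19. The fits with 1 library left out had no block. Leaving out a replicate 3 library leaves its group with the earlier deposit alone, so such a fit mixes deposit with group, also for the median. Within each deposit Cxcl2 was higher in PNX, as given above. The cause was not tested. Of the other values of named genes under alternatives, 647 kept their direction and side of the threshold and 134 passed it where the fit without block did not. Genes with few counts, such as Cxcl5 in sham, have wide intervals.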
